A study of Mus musculus with 3 samples.

Results

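TEC and sense_intronic genes are noncoding gene models, most of them unspliced, that lie largely inside the introns of other genes. They were examined here in the cytosolic RNA of mouse macrophages, the tissue phagocytes, grown in culture from bone marrow. Members were chosen by their expected counts (estimated reads per gene). A gene of either biotype in GENCODE M21 was taken when its mean over the 3 libraries was 10 or more. This left 622 of the 3546 annotated genes of both biotypes, namely 568 of 3219 TEC and 54 of 327 sense_intronic genes, out of 55536 genes in all. The cells were of strain C57BL/6J. All of them received lipid A, the membrane anchor of bacterial lipopolysaccharide, at 100 ng/ml for 12 h, were then kept without it for 12 h, and were harvested at the start (0 min) of another stimulation. The 3 libraries form 1 group, with no untreated or other control group analysed here, so no value below is an effect of lipid A. The labels number them as biological replicates 1, 2 and 3 of separate biosamples under the same donor identifier, and nothing says whether they came from separate animals. P-values between libraries therefore reflect differences among these 3 preparations, and such differences can be technical.

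A TEC model marks a cluster of unspliced transcript evidence, often with features of a polyadenylated end, whose nature as a gene is still to be shown by experiment. A sense_intronic model is a long noncoding transcript that lies in an intron of another gene, on the strand of that gene, without sharing its exons. Introns are normally removed from the primary transcript and broken down in the nucleus, whereas messenger RNA is exported to the cytosol. Reads inside an intronic model and reads from the unspliced transcript of its host cannot be told apart in tables of counts per gene.

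The models the results turn on differ in how their annotated ends read. Each model was searched on its own strand for a poly(A) signal, AATAAA or ATTAAA, in its last 50 bases, and the CG pairs in its first 300 bases were counted. Sequences are those of GENCODE M21 transcripts on build GRCm38, each written 5′ to 3′. The last 60 bases of 4 models with a signal are shown first, with the signal in capitals. Peg13, 2210406H18Rik and Gm42547 had a highest to lowest ratio of scaled counts of 1.44 or less over the 3 libraries, and Gm43197 was far higher in replicate 3.
Peg13 (chr15:72805600-72805659, minus strand): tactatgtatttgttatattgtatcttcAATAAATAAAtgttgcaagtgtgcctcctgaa
2210406H18Rik (chr7:121062852-121062911, minus strand): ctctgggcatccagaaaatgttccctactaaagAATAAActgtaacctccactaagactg
Gm42547 (chr6:28211008-28211067, minus strand): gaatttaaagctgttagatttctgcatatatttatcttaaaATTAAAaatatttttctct
Gm43197 (chr6:3336772-3336831, minus strand): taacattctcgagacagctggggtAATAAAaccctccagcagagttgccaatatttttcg
The last 60 bases of 4 intronic models that were higher in replicate 3 follow. They hold neither signal, which says only that these letters are not in this window.
Gm29488 (chr1:131406812-131406871, minus strand): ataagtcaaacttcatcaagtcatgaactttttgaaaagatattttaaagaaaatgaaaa
Gm36933 (chr1:180379455-180379514, plus strand): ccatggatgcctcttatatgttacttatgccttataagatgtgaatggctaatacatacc
Gm37488 (chr3:60607698-60607757, plus strand): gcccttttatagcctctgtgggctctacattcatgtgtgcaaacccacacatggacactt
Gm43984 (chr6:134087405-134087464, plus strand): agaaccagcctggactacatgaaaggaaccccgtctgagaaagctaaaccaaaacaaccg
The first 60 bases of 4 models show the range in CG pairs, which are in capitals. The first 300 bases hold 19 CG pairs in Gm29170, 17 in Peg13, 2 in Gm43984 and 1 in Gm29488.
Gm29170 (chr1:143777642-143777701, plus strand): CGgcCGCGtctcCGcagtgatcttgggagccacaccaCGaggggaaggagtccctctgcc
Peg13 (chr15:72810265-72810324, minus strand): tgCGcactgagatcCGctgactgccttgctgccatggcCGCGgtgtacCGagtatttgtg
Gm43984 (chr6:134084601-134084660, plus strand): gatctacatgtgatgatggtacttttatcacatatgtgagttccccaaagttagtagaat
Gm29488 (chr1:131409154-131409213, minus strand): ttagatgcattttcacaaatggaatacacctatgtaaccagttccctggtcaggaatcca

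The members were rare RNAs, and most of their reads came from replicate 3. The mean level of a member ran from 0.0167 to 10.25 TPM (the deposited abundance per length, scaled to a fixed library total), with a median of 0.153 TPM. Only 28 members had a mean of 1 TPM or more, and 16 reached 1 TPM in every library. The median member held 3 expected counts in replicate 1, 3 in replicate 2 and 56 in replicate 3, or 0.03, 0.02 and 0.40 TPM. Replicates 1, 2 and 3 had 104, 144 and 618 members at 10 or more counts, and 84, 85 and 1 members at 0. Of the 622 members, 94 reached 10 counts in every library and 472 reached it in replicate 3 alone. The rule therefore took in most members through replicate 3, and counts and medians over the members are given as descriptions of these libraries.

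The threshold fell among genes with few reads. Just above it, Gm45553 held 2, 1 and 27 expected counts in replicates 1, 2 and 3, and Gm38376 and Gm49310 held 0, 1 and 29 each, all with a mean of 10. Just below it, Gm48374 held 8.98, 6.54 and 14.28 counts (mean 9.93), Gm37553 held 1, 0 and 28, and Gm42633 held 1, 1 and 27 (mean 9.67 each).

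The summed share of both biotypes needs no threshold and was also highest in replicate 3. The libraries held 28981178 (replicate 1), 53119941 (replicate 2) and 46783133 (replicate 3) expected counts assigned to genes. All 3546 annotated genes of both biotypes together took 0.0292% of the gene counts of replicate 1, with a 95% Wilson interval of 0.0286 to 0.0299%. They took 0.0259% of replicate 2 (0.0255 to 0.0263%) and 0.143% of replicate 3 (0.142 to 0.144%). Replicate 3 thus held 5.20 times the mean share of the other libraries, and the intervals, which cover counting error only, do not overlap. Genes with any count numbered 913, 939 and 1639 in replicates 1, 2 and 3. A count of 0 allows up to 0.104, 0.0565 and 0.0641 CPM (counts relative to the library total) there, from 3 counts of each total.

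Replicate 3 also held more of several RNAs listed here as nuclear-retained, and the cells carried macrophage markers. Malat1, an abundant RNA of nuclear speckles, stood at 158, 91.0 and 1343 TPM in replicates 1, 2 and 3, and Kcnq1ot1, an imprinted nuclear RNA, at 0.01, 0.01 and 0.48 TPM. Of the list of 10 RNAs, 8 were highest in replicate 3, Tug1 was not, and Meg3 was at 0 in every library. Among the 8, Snhg11 held only 0, 1 and 3 counts, and Pvt1 was nearly level at 0.43, 0.47 and 0.61 TPM. The summed level of the list was 201, 120 and 1466 TPM, most of it from Malat1 in each library. The part of such RNAs in the values below was not tested. All 8 macrophage markers reached 1 TPM in every library. So did 2 of 8 neutrophil markers, S100a8 and S100a9, with a summed list level of 5.36 to 10.54 TPM and Ly6g at 0. None of 4 B cell, 4 T and NK cell, 4 fibroblast or 4 erythroid markers did, with Cd79a, Pdgfra and Hba-a1 at 0. In such bulk samples fewer cells of a type and less RNA per cell cannot be told apart.

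**Figure D1:**
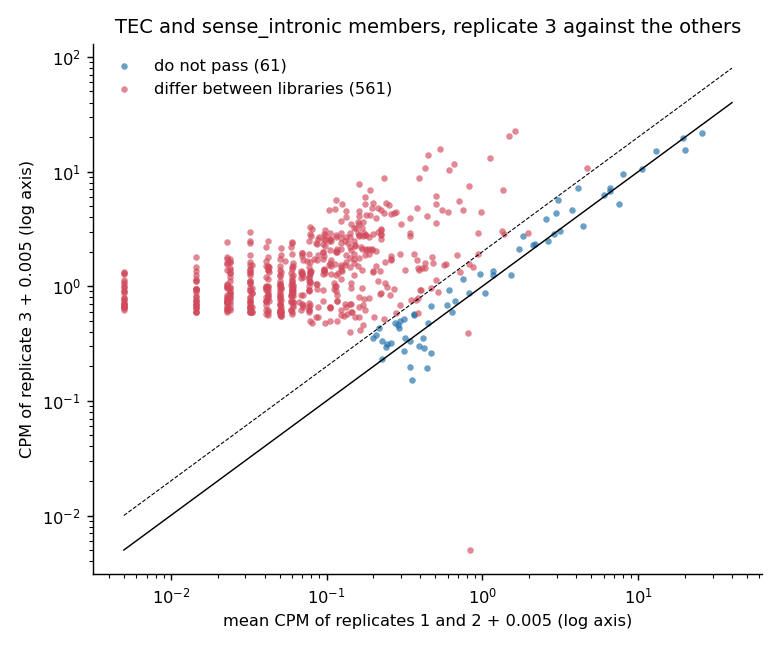
CPM of each of the 622 members in replicate 3 against its mean in replicates 1 and 2, scaled by TMM, on log axes with 0.005 added. Red points are the 561 members that differ between libraries and blue points the 61 that do not pass. The solid line marks equal levels and the dashed line a ratio of 2. Most red points stand far above the lines, and the empty lower left corner is set by the threshold on the mean count.

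Most members differed between the libraries, and nearly all of these were highest in replicate 3. A gene was said to differ when a chi-square test of homogeneity on scaled counts passed 0.05 after Benjamini-Hochberg adjustment over all 13636 genes tested, and its highest library stood at least 2 times above its lowest. By this rule 561 of the 622 members differed, against 16.2% of all genes tested. Replicate 3 was highest for 559 of them, against 11.4% of all genes tested. The rule took most members through replicate 3, which largely fixed both counts in advance. The members that differed with another library highest, named after their values were seen, were Gm37376 and Gm43814. Gm37376 lies wholly opposite Malat1 and held 12.9, 63.14 and 0 counts with a deposited posterior SD of 19.66, 33.1 and 25.27, but 249, 547 and 3207 counts in the table derived directly from the reads, so its direction is uncertain. Gm43814, on chromosome 9, held 24, 39 and 19 counts, or 0.859, 0.739 and 0.389 CPM after scaling.

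The lean to replicate 3 was also seen in genes picked without that library. Of genes of both biotypes, 121 had a mean of 10 or more counts in replicates 1 and 2, and 120 of these are members. Replicate 3 was highest and the libraries differed for 63 of the 121 (52.1%), against 4.83% of the 12596 genes of all biotypes picked in the same way, 2.49% of protein-coding and 26.8% of lincRNA genes (long intergenic noncoding RNAs). The median log2 ratio of replicate 3 to the mean of replicates 1 and 2 was 0.81 in the 121 genes and -0.07 over all genes so picked. Between replicates 1 and 2 alone, 14 of 122 genes of both biotypes differed, against 4.83% of all 12638 genes tested there, and 12 of the 14 were higher in replicate 1. Over the 622 members the median log2 ratio of replicate 3 was 3.92, or 15.1-fold, with 3.92 for TEC and 3.88 for sense_intronic members. The median was the same with the 24 members at 0 in replicates 1 and 2 set at the limit that a count of 0 allows. This was fixed in advance, because the rule on the mean count keeps such members above the median even at that limit. Over all genes tested it was -0.07 for protein-coding genes, 0.40 for lincRNA, 0.52 for processed_transcript and 0.92 for antisense genes.

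**Figure D2:**
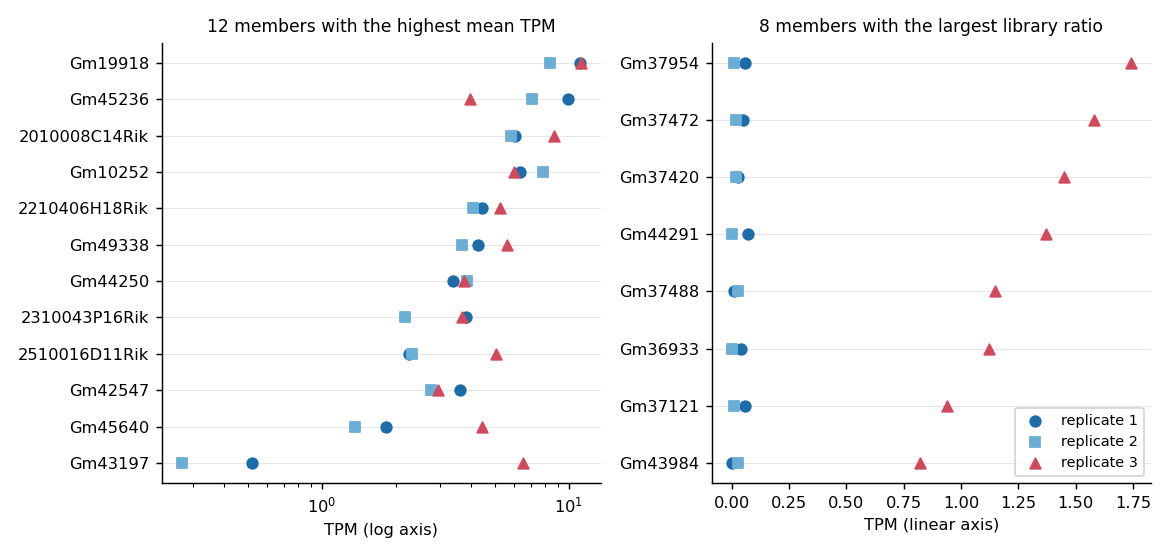
Deposited TPM in each library, for the 12 members with the highest mean TPM on a log axis (left) and for the 8 members with the largest ratio between libraries on a linear axis (right). On the left 10 of the 12 members do not pass the test between libraries, Gm43197 and Gm45640 being the exceptions. On the right every replicate 3 value stands between 0.82 and 1.74 TPM and every other value at 0.07 TPM or less.

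Most of the 12 members with the highest mean TPM did not pass the test between libraries. Several of these still differed beyond counting error and failed only on the ratio of 2. Among all members with a mean of 50 or more counts, 79 passed the test and 26 did not. The rule took most members through replicate 3, so the contrast of these 12 with the other members is in part set by the rule. Gm44250, with the highest mean count, lies 366 bases downstream of Pon3, which encodes a paraoxonase, on the same strand (chromosome 6, 5216258 to 5220486). Gm44250 held 650, 1497 and 1069 expected counts, or 3.39, 3.87 and 3.76 TPM, in replicates 1, 2 and 3. Its scaled counts differed beyond counting error, but the highest to lowest ratio was 1.30, under the 2 required, and Pon3 itself held 10.62, 10.91 and 11.62 TPM. 2010008C14Rik, 965 bases downstream of the lysophosphatidic acid receptor gene Lpar5, held 101, 208 and 226 counts, or 6.07, 5.81 and 8.68 TPM. Gm42547, which lies outside other genes on chromosome 6, held 619, 951 and 750 counts, or 3.62, 2.76 and 2.96 TPM. It too differed beyond counting error (chi-square test, adjusted p = 2.8e-10), at a highest to lowest ratio of 1.44. 2210406H18Rik, inside Mettl9 on the other strand, held 184, 350 and 330 counts, or 4.44, 4.09 and 5.27 TPM (adjusted p = 0.96). Its level in replicate 3 was 1.02 times that in the others pooled (95% interval 0.887 to 1.17).

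Members inside a same-strand host that did not pass the test were few, 15 of 449. Peg13, an imprinted noncoding RNA expressed from the paternal allele, lies in an intron of Trappc9, a subunit of a membrane trafficking complex, and was the sense_intronic member with the highest count. Peg13 held 271, 602 and 510 counts, or 1.26, 1.39 and 1.60 TPM, and did not pass the test (adjusted p = 0.087). 2310043P16Rik, in an intron of the antisense gene Gm12764 on chromosome 7, held 672, 764 and 957 counts, or 3.84, 2.16 and 3.69 TPM, above the 1.47, 1.73 and 1.03 TPM of its host. Its counts differed beyond counting error (chi-square test, adjusted p = 6.0e-21), but the highest to lowest ratio was 1.66. 2510016D11Rik, in an intron of the endolysosomal channel gene Tpcn1, held 80, 170 and 274 counts. It likewise failed only on the ratio, at 1.95 (chi-square test, adjusted p = 1.1e-10). It took 2.69, 2.85 and 3.33% of the summed counts of the member and Tpcn1, whose own level was 13.47, 13.43 and 25.29 TPM. Both were thus highest in replicate 3, and the share did not pass its test (adjusted p = 0.125).

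Some of the highest levels belonged to short models opposite exons of abundant genes and are uncertain. Gm19918, 400 bases long and wholly opposite Fam20b, held 83.43, 146.5 and 139.9 expected counts, but 10.6, 8.40 and 0.0933 in the table derived directly from the reads. Gm45236, 229 bases long and wholly opposite Gde1, held 11.31, 24.73 and 9.22 expected counts and 0 in each library of the read-derived table. Gm10252, partly opposite the ferritin light chain gene Ftl1, held 178.09, 461.14 and 256.79 expected counts and 18.6, 73.1 and 93.2 read-derived ones, which turned the direction of its replicate 3 ratio and passed the test. Gm49338, opposite Bace1, the beta-secretase gene, was closer, at 379.59, 661.36 and 741.59 expected and 413, 676 and 775 read-derived counts. Exon bases were shared with a gene on the same strand by 36 members and with one on the other strand by 101. The deposited posterior SD of the count was above 0 in at least 1 library for 65 of the 86 members that share 100 or more bases with exons of the other strand alone. It was above 0 for 12 of the 488 members that share no exon base. No source used here says whether the counting used strand, so reads of a member and of a gene opposite it cannot be told apart. For the 38 pairs whose other gene stood at 10 TPM or more, the member's median level was 0.839% of that gene's, and the highest was the 71.0% of Gm19918.

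Of the 561 members that differed between libraries, 434 lie inside a same-strand host. So do 72.2% of all members and 53.6% of the annotated genes of both biotypes not taken. Gm43197, in an intron of the noncoding gene Gm20559 on chromosome 6, held 58, 62 and 1093 counts, or 0.52, 0.27 and 6.53 TPM. Replicate 3 stood 15.1-fold above the others pooled (95% interval 12.5 to 18.3), while Gm20559 held 46.06, 26.24 and 49.47 TPM. 9330162G02Rik, a model of 30942 bases that partly overlaps the ubiquitin ligase gene Ube3a on the other strand, held 49.24, 63.3 and 1005.26 counts, but only 0.03, 0.02 and 0.46 TPM. Gm45640, in an intron of the chromatin remodeller gene Chd9, held 144, 220 and 529 counts. Its ratio of 2.40 (2.10 to 2.75) was far smaller, and its summed share with Chd9 was 3.23, 3.07 and 6.44%.

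The 8 members with the largest ratios among those with a mean of 50 or more counts were all TEC models in introns. Gm43984, in the transcriptional repressor gene Etv6, held 0, 8 and 153 counts. Gm44291, in Dennd1a, a regulator of endosomal traffic, held 9, 1 and 256. Gm36933, in the inositol phosphate kinase gene Itpkb, held 5, 1 and 227, and Gm37954, in Srgap2, held 5, 2 and 228. Gm37121, in the neuropilin gene Nrp2, held 7, 2 and 156, and Gm37488, in the splicing regulator gene Mbnl1, held 2, 9 and 256. Gm37420 and Gm37472 lie in Dleu2, the host transcript of the miR-15a and miR-16-1 precursors, and held 4, 4 and 276 and 9, 7 and 428 counts. In each of the 8 both other libraries were at 9 counts or fewer. Replicate 3 stood 28.6-fold (95% interval 14.7 to 63.8, Gm37121) to 62.5-fold (28.3 to 172, Gm36933) above the others pooled. These pooled ratios rest on few reads and have no counts added. With 0.5 counts added, the ratios against replicate 2 alone ran from 19.5-fold (Gm43984) to 182-fold (Gm44291). Against replicate 1 alone they ran from 12.2-fold (Gm37121) to 241-fold (Gm43984). Gm43984 held 0 counts in replicate 1, so the size of its 241-fold is set by the counts added. Dleu2 was itself uneven, at 9.18, 3.24 and 14.08 TPM, whereas Mbnl1 held 129.63, 106.24 and 136.63 TPM.

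Of the 54 sense_intronic members, 50 differed and all 50 were highest in replicate 3. Over all genes tested 16.2% differed, and 11.4% did so with replicate 3 highest. Most members were taken through replicate 3, so this count describes the libraries and is no trait of the biotype. The other 4 were Peg13, AC157784.1, Gm14040 and Gm43031, of which the first 3 were not highest in replicate 3 by scaled counts. AC157784.1, in Ccbe1, held 9, 27 and 14 counts and Gm14040 held 13, 19 and 17, while Gm43031, in Akap9 and named after its values were seen, held 7, 8 and 18. Gm29488, in Srgap2, held 12, 18 and 432 counts, or 0.12, 0.09 and 2.80 TPM, a ratio of 23.8 (95% interval 16.4 to 35.7). Its host held 78.0, 55.87 and 82.95 TPM. Gm47920, in the transcriptional coregulator gene Zmiz1, held 8, 9 and 211.78 counts. Gm42664, in the splicing regulator gene Ptbp2, held 14, 9 and 194, and D130062J10Rik, in the endocytosis gene Fcho2, held 7, 2 and 122. Ppnr, in the Wnt pathway transcription factor gene Tcf7l2, held 3, 3 and 115 counts. Gm47601 in Lrmda held 2, 6 and 109, and Gm42659 in the actin capping protein gene Capza1 held 6, 7 and 104. Gm48302, in the elongation factor gene Ell2, held 6, 3 and 107, and Gm43329, in the small GTPase gene Rap1a, held 1, 3 and 106. In these 9 models replicates 1 and 2 were both at 18 counts or fewer and replicate 3 at 104 or more. Gm29170, in the deubiquitinase gene Uchl5, and Gm15708, in Bri3, were less uneven, at 17, 18 and 77 and at 28, 46 and 93 counts, with ratios of 3.64 (2.41 to 5.59) and 2.08 (1.51 to 2.86). Without replicate 2 the call for Gm15708 was lost.

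How uneven the members were varied with their position in the genome. Of the members, 449 (72.2%) lie wholly inside another gene on the same strand, against 53.6% of the 2924 genes of both biotypes that are not members. A further 77 lie inside a gene on the other strand, 34 lie within 10 kb downstream of a gene on the same strand, and 34 and 8 overlap a gene in part on the other and on the same strand. Outside other genes lie 20 members (3.22%), against 24.5% of those not taken. The median log2 ratio of replicate 3 was 4.16 for members inside a same-strand host and 3.76 for those inside a gene on the other strand. It was 3.04 for partial overlap on the same strand, 1.90 downstream of a gene, 0.92 outside other genes and 0.84 for partial overlap on the other strand. In the genes picked on replicates 1 and 2 the share was again highest inside a same-strand host, while genes inside a gene on the other strand no longer came next. There 35 of 48 genes inside a same-strand host differed with replicate 3 highest, against 8 of 16 downstream of a gene, 7 of 20 inside a gene on the other strand, 4 of 11 outside other genes and 7 of 23 in partial overlap on the other strand. Of the 3 in partial overlap on the same strand, 2 did so. The median log2 ratio of these genes was 1.72 inside a same-strand host, 0.89 for partial overlap on the same strand and 0.87 downstream of a gene. It was 0.40 for partial overlap on the other strand, 0.20 outside other genes and 0.17 inside a gene on the other strand. The rule took most members through replicate 3, so the shares and medians over members in part reflect that choice. Differences between these positions were not tested.

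**Figure D3:**
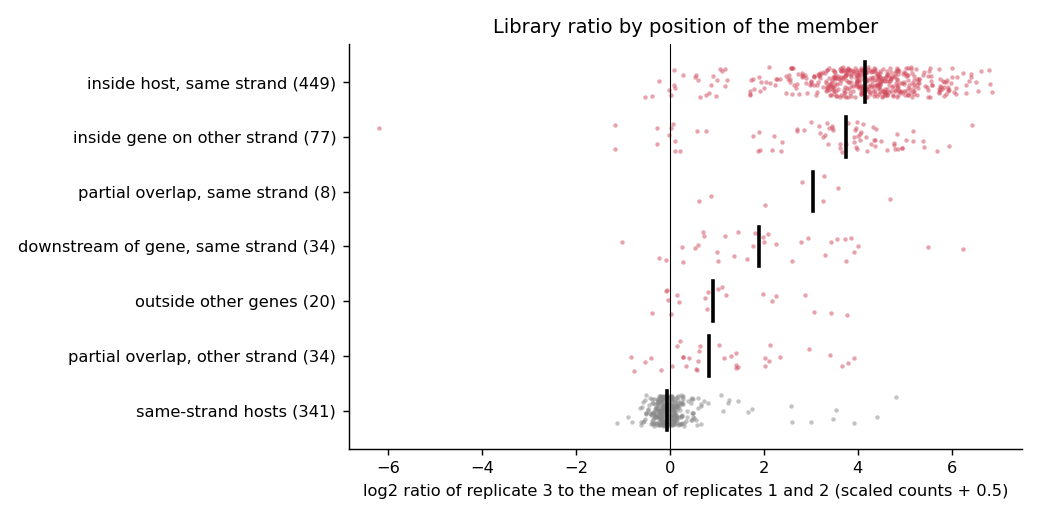
Log2 ratio of replicate 3 to the mean of replicates 1 and 2 (scaled counts with 0.5 added) for every member, by its position, with the number of members in parentheses. Black bars are medians and grey points are the 341 same-strand hosts. The medians run from 4.16 inside a same-strand host to 0.84 for partial overlap on the other strand, and the hosts centre on -0.06.

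The hosts did not share the members' lean to replicate 3. The 449 members lie in 341 hosts, of which 320 are protein-coding, and 424 members are wholly intronic, 25 cover both exon and intron and none is wholly exonic. The protein-coding hosts were long genes, with a median span of 88.1 kb against 23.7 kb for the protein-coding genes tested, and well expressed, with a median of 11.0 against 5.74 TPM. Of the 334 hosts with enough counts, 16 (4.79%) differed between libraries and 12 (3.59%) did so with replicate 3 highest. The shares were 16.2% and 11.4% of all genes tested, and 8.14% and 3.78% of protein-coding genes. With replicate 3 highest, the hosts thus stood near the share of protein-coding genes. The median log2 ratio of the hosts was -0.07. In 439 of the 449 pairs the member's log2 ratio was above its host's, by a median difference of 4.18. The rule took most members, but not their hosts, through replicate 3, so the choice of members in part sets this gap. Among the 48 genes inside a same-strand host picked on replicates 1 and 2, the median log2 ratio was 1.72, and 35 differed with replicate 3 highest. The median member stood at 0.167, 0.0955 and 3.06% of its host's TPM in replicates 1, 2 and 3. Across the pairs the Spearman correlation of member and host TPM was 0.21, 0.13 and 0.48 in replicates 1, 2 and 3. These are descriptions over 449 pairs that share libraries and, in part, hosts, and genes are not independent replicates. With the host span cut in 3 equal parts from its 5′ end, 190 members had their centre in the first, 165 in the middle and 94 in the last part, and position in the host showed no relation with TPM in replicate 3 (Spearman correlation -0.04).

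**Figure D4:**
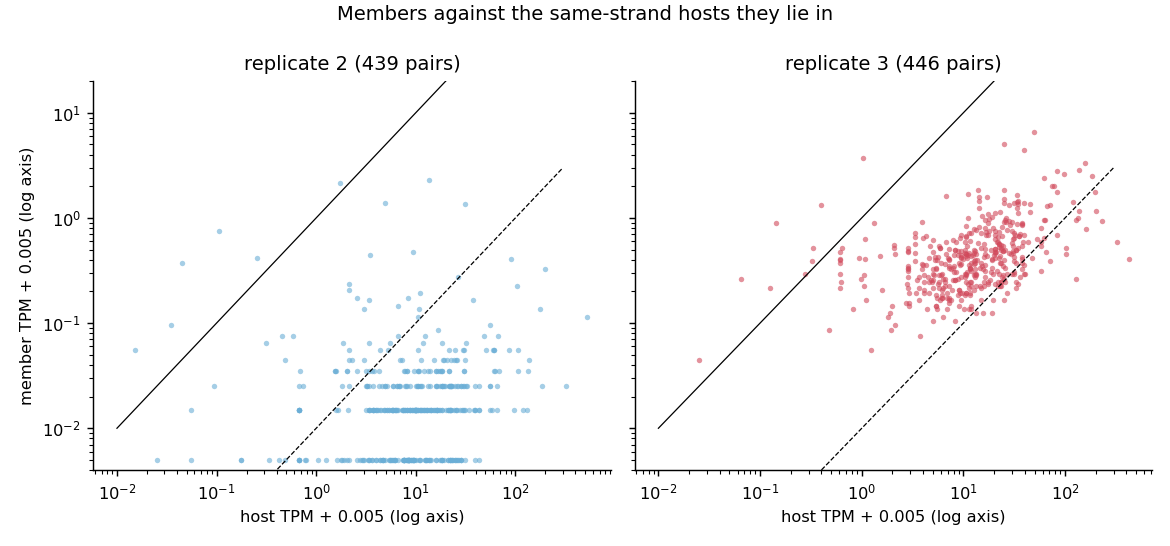
TPM of each member against that of the same-strand host it lies in, in replicate 2 (439 pairs) and replicate 3 (446 pairs), on log axes with 0.005 added. The solid line marks equal TPM and the dashed line 1% of the host. Most points lie below the dashed line in replicate 2, where the median member stood at 0.0955% of its host, and above it in replicate 3, at 3.06%.

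Set against its own host within a library, nearly every member took a larger share in replicate 3. This share, the member's part of member plus host counts, needs no scaling between libraries. It differed for 417 of 441 testable members, by a chi-square test over the libraries with Benjamini-Hochberg adjustment over 685 nested same-strand pairs of any biotype and a ratio of at least 2. Replicate 3 was highest for 415 of them, against 70.9% of all those pairs, which include the members. Among the 244 pairs whose inner gene is no member, 71 (29.1%) did so. The rule took most members, but not their hosts, through replicate 3, which in large part fixed the count for members in advance. With inner genes picked on replicates 1 and 2, 31 of 44 pairs of both biotypes differed with replicate 3 highest, against 22.7% of the 233 pairs picked in that way. Gm29488 took 0.0960, 0.0983 and 2.04% of its counts with Srgap2, and Gm37488 took 0.0118, 0.0332 and 1.03% with Mbnl1. Peg13 took 26.1, 26.1 and 22.9% with Trappc9, a ratio of 1.14.

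A few hosts held many members, and all of these were highest in replicate 3. Of the hosts, 278 hold 1 member, 40 hold 2 and 23 hold 3 or more. Mir99ahg, the noncoding host transcript of the miR-99a and let-7c precursors, spans chromosome 16 from 77236317 to 77773427 and holds 9 members. Their summed counts were 21, 15 and 528.71 in replicates 1, 2 and 3, and the host held 0.68, 0.66 and 2.84 TPM. The 5 members in the ceramide synthase gene Cers6 summed to 12, 15 and 439 counts at a host level of 26.74, 22.76 and 24.24 TPM. The 5 in Med13l, a subunit of the Mediator kinase module, summed to 8, 17 and 416 at 10.38, 8.21 and 10.71 TPM. The 5 in the nuclear receptor coactivator gene Ncoa2 summed to 2, 7 and 324 at 11.74, 10.11 and 12.57 TPM. The noncoding gene Gm4258 holds 5 more, with summed counts of 14, 12 and 371, and was itself at 0.02, 0 and 0.60 TPM. All members of these 5 hosts passed the test, against 16.2% of all genes tested. None of these members held more than 7 counts in replicate 1 or 2. The rule thus took each of them through replicate 3, which largely fixed this outcome in advance. In the coding hosts the host was level while its members were not, whereas Mir99ahg and Gm4258 were highest in replicate 3 as well.

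The members with the largest level relative to their host were mostly inside weakly expressed genes, which a ranking by that ratio favours by construction. AC144860.1 held 1.02, 0.75 and 1.31 TPM inside Gm1976 at 0.26, 0.10 and 0.39 TPM. Gm14040 held 0.60, 0.41 and 0.51 TPM inside F830045P16Rik at 0.30, 0.25 and 0.33 TPM. AC157784.1, Gm38056 and 4930556H04Rik likewise stood above hosts at 0.12 TPM or less, with 9 to 27 counts each. None of these 5 members differed between libraries, except that Gm38056 did with read-derived counts, at 5.61, 15.9 and 46.3, where replicate 3 was highest. 6430511E19Rik inside Gm26944, at 25, 10.01 and 227.61 counts, and Gm28229 inside Gm20537, at 6, 0 and 52 counts, were highest in replicate 3, as were their hosts, at 0 TPM in both other libraries.

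The 61 members that did not pass the test comprise 15 inside a same-strand host, 12 inside a gene on the other strand, 16 in partial overlap on the other strand, 9 outside other genes, 8 downstream of a gene and 1 in partial overlap on the same strand. Of the 28 members with a mean of 1 TPM or more, 19 were among them. A poly(A) signal stood in the last 50 bases of 35 of the 61 (57.4%), against 149 of the 561 that differed (26.6%). The share was 28.7% in genes of both biotypes that are not members, 41.0% in lincRNA, 68.8% in protein-coding and 38.3% in all genes. At least 10 CG pairs stood in the first 300 bases of 20 of the 61 (32.8%) and of 43 of the 561 (7.66%), against 8.62% of those not taken, 58.1% of protein-coding and 30.4% of all genes. Among members with a mean of 50 or more counts, 14 of 26 that did not pass and 18 of 79 that differed held a signal, and 10 of 26 and 6 of 79 were rich in CG. The gap was smaller in the genes picked on replicates 1 and 2, where a signal stood in 35.4% of the 65 that differed and 55.4% of the 56 that did not, and in 49.2% and 55.4% with the last 100 bases searched. There 21.5% and 33.9% were rich in CG. In members wholly in introns the shares were 22.2% and 3.07%. These shares are descriptions of letters in windows, their differences were not tested, and Gm43197, Gm44291 and Gm28229 show that models with a signal were also among those highest in replicate 3.

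**Figure D5:**
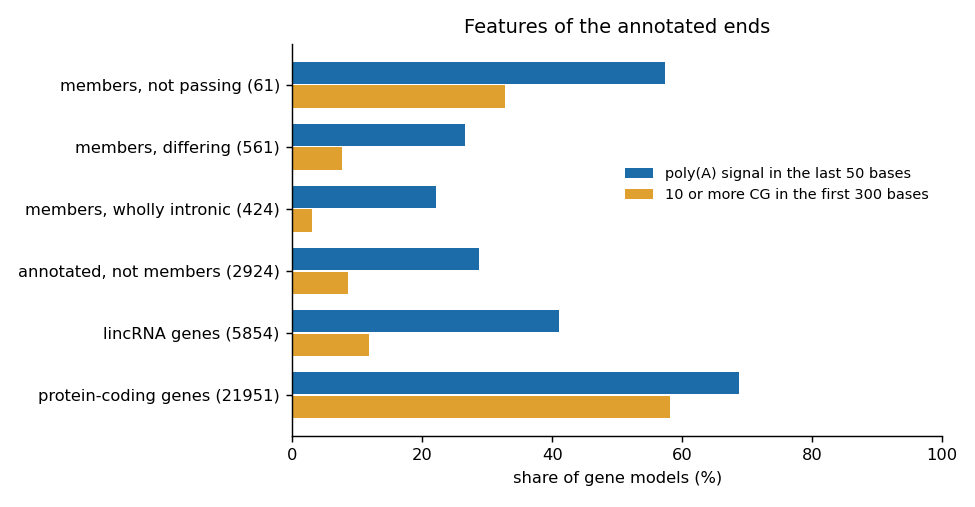
Share of gene models (%) with AATAAA or ATTAAA in the last 50 bases (blue) and with 10 or more CG pairs in the first 300 bases (orange), with the number of models in parentheses. Members that did not pass the test stand at 57.4% and 32.8%, members that differed at 26.6% and 7.66%, and protein-coding genes at 68.8% and 58.1%.

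The read-derived table gave the same picture for most members and other values for some. There 619 of the 622 members had a mean of 10 or more counts, with a median of 1.38 times the alignment-derived mean, and the Spearman correlation of the means was 0.82 over the 622 genes. The estimate was over 2 times as high for 105 members and under 0.5 times for 3, the short models Gm19918, Gm45236 and Gm10252. Gm42427, 1059 bases downstream of Gm42428, held 231.56, 408.39 and 468.25 expected counts but 1484, 2685 and 3456 read-derived ones. Gm43737, opposite Mtx1, agreed more closely, at 167.79, 378.14 and 349.28 expected and 174, 396 and 358 read-derived counts. With read-derived counts 560 of 619 members differed between libraries, against 32.6% of all genes tested on those counts. These are still the members that the rule mostly took through replicate 3, so this count too is a description.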

How the data were processed

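Ribosomal RNA-depleted total RNA-seq of 1 group of 3 cytosolic libraries was analysed. Per the deposited README, the tables rest on mouse assembly mm10 and annotation M21, and no source used here gives the aligner, the quantifier or the use of strand. Expected counts are reads per gene as estimated by the authors, per the file headers. TPM and FPKM were scaled by the authors for length and library total. A further deposited table, made directly from the reads, holds estimated counts and TPM per transcript, summed here per gene. Rows that name no gene, 26345 of 81881, were left out and took 0.418%, 0.248% and 0.165% of counts in replicates 1, 2 and 3.

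After rounding, expected counts were scaled by TMM (edgeR 4.0.16, R 4.3.3). A single group allows no replicated test of 1 library, so homogeneity over libraries was tested by chi-square, adjusted by Benjamini-Hochberg and checked on simulated counts. It reads each count as an independent molecule and covers counting error alone. Log2 ratios and ratios of the highest to the lowest library add 0.5 counts. Ratios of replicate 3 to the others pooled add none, and their intervals are exact at 95%. Positions and sequences come from GENCODE M21 on GRCm38. Other tools were matplotlib 3.10.9, pandas 2.3.3, scipy 1.17.1 and numpy 2.4.6 in Python 3.11.15.

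Members and lists were chosen with earlier results of these data known. Named are the 12 members highest in TPM, the 10 highest in counts, the 12 sense_intronic members with the most counts, the 8 largest library ratios at a mean of 50 counts or more, the 8 largest levels relative to the host, the 5 hosts with most members, the genes next to the threshold, and the hosts of these. Alternatives were other count minimums, ratios and pseudocounts, DESeq2 1.42.0 size factors, totals without TMM, FPKM, posterior mean TPM, TPM of protein-coding genes, read-derived values, each replicate left out, and other definitions of host, shared exon and signal window. Picking genes on replicates 1 and 2, and taking biotypes from the transcripts, were chosen after seeing the data.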

Additional observations from a re-analysis of the deposited data

How the results depend on the processing

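Without replicate 3 the number of members fell from 622 to 121, and without replicates 1 and 2 it was 763 and 755. A mean of 20 or more counts left 333 members, 10 or more counts in every library left 94, a mean of 10 or more in replicates 1 and 2 left 121 and read-derived counts gave 1328. TPM of protein-coding genes raised the median TPM from 0.153 to 0.492, while read-derived TPM gave 0.0604 and leaving out 1 replicate gave 0.02 (without replicate 3) to 0.22. The number of members differing between libraries was 561 of 622, against 16.2% of all genes tested. With 1 replicate left out it ran from 14 of 121 without replicate 3 (4.83% of all genes) to 558 of 622 without replicate 1 (14.4%). A mean of 30 or more counts left 184 of 215, since fewer members were tested, against 9.55% of all genes there, and genes picked on replicates 1 and 2 gave 65 of 121. The median log2 ratio of replicate 3 was 3.92, and it was 3.39 with a pseudocount of 2 counts and 0.81 for genes picked on replicates 1 and 2. Members whose share with the host differed numbered 417 of 441, against 73.1% of all pairs. With 1 replicate left out they ran from 6 of 418 without replicate 3 (2.42% of all pairs) to 416 of 441 without replicate 1 (71.7%). Picked on replicates 1 and 2 they were 32 of 44, against 28.8% of the 233 pairs so picked. Members sharing exon bases rose from 36 to 134 when either strand counted. The cause of these changes was not tested beyond the smaller number of genes or libraries. Among single named members, the log2 ratio of replicate 3 turned with read-derived counts from -0.52 to 0.69 in Gm10252 and from -0.37 to 1.67 in Gm38056, both then past the test. Gm45640 lost its call at a ratio of at least 3, and Gm15708 there and without replicate 2. Calls were gained by Gm45236 without replicate 1, by 2510016D11Rik with totals without TMM, and by Gm10252, 2310043P16Rik and 2510016D11Rik at a ratio of at least 1.5. A count of 3 or fewer limits most members in replicates 1 and 2. No paired analysis was possible because there is 1 group.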

Other observations

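Beyond the members, 709 genes of both biotypes reached a mean of 10 counts in the table derived from the reads and not in the alignment-derived one. The highest of them, Gm37144, lies inside Mrpl15, a mitochondrial ribosomal protein gene. It held 455, 2842 and 3289 read-derived counts in replicates 1, 2 and 3, against 1, 0 and 8 expected counts. Gm42860 and Gm48271, both outside other genes, held 234, 468 and 2938 and 196, 234 and 3066 read-derived counts, against 2, 2 and 9.06 and 1, 0 and 1 expected counts. These genes were chosen after their values were seen, and which table is closer to the RNA was not tested.

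The members were spread unevenly over the chromosomes, as were the annotated models. Chromosomes 5 and 1 hold 95 and 93 members of 540 and 506 annotated genes of both biotypes, whereas chromosome 11 holds 1 of 28 and chromosome 4 holds 3 of 44.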
